A study of Homo sapiens with 6 samples.

Results

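The proteasome is the protease that degrades proteins tagged with ubiquitin, and its genes were followed in H460 cells with and without fluoxetine. The genes were chosen by annotation and not by level: they are the rows of the deposited count table whose pathway column lists Proteasome as an entry of its own, 43 of 31762 genes. The choice of this entry was made with earlier results of these data known. The 43 genes comprise 18 genes of the 20S core particle (PSMA and PSMB symbols), 21 genes of the regulatory caps (PSMC, PSMD and PSME symbols) and 4 genes with other symbols, ADRM1, POMP, PSMF1 and SEM1. All 43 code for proteasome subunits or for proteins known to bind or mature the particle, so the annotation name was kept.

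H460 is a human lung carcinoma cell line. Wild-type H460 cells grown in RPMI-1640 with serum were left as control or exposed to 20 µM fluoxetine, a serotonin reuptake inhibitor used as an antidepressant, for 24 h. RNA was sequenced in 3 libraries of each group. The control label does not say whether a vehicle was added, and neither the labels nor the methods say whether the libraries of a group came from separate cultures, so p-values measure the spread between these libraries, which may be technical. The question of the comparison is which transcripts differed after fluoxetine treatment.

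The 20S core is a barrel of stacked rings, with outer rings of alpha subunits that gate the entrance and inner rings of beta subunits, of which PSMB5, PSMB6 and PSMB7 hold the active sites. The 19S cap recognises ubiquitinated substrates with its lid and receptors, and a ring of ATPases (PSMC1 to PSMC6) unfolds them and feeds them into the core. In cells exposed to interferon, PSMB8, PSMB9 and PSMB10 replace the active subunits to form the immunoproteasome, which is capped by PSME1 and PSME2 and is known for cutting peptides for antigen presentation. Proteasome genes share transcription factors, among them NFE2L1, and are known to be transcribed together when proteasome activity is short.

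The libraries held 16157507 to 27823667 counts, at which 3 counts are worth 0.108 to 0.182 CPM (counts scaled to a common library size after TMM correction of the totals). Pairs of libraries of the same group differed by more than sampling noise (chi-square per degree of freedom 3.72 to 24.2). None was therefore taken to be the same library sequenced again. These values cannot tell separate cultures from separate preparations of 1 culture. The epithelial keratins KRT8, KRT18 and KRT19 lay between 285 CPM (KRT18, fluoxetine) and 2095 CPM (KRT8, control), while the epithelial markers EPCAM and CDH1 and the lung lineage markers NKX2-1, SFTPC and NAPSA were below 1 CPM in all 6 libraries. KRT7 lay between 0.653 and 1.15 CPM. Of the markers of other cells, PTPRC, COL1A2, DCN, PECAM1 and VWF were below 1 CPM in every library and COL1A1 was at 5.34, 5.31 and 3.20 CPM in control and 4.42, 4.34 and 3.43 CPM in fluoxetine libraries.

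After fluoxetine treatment most proteasome genes had slightly lower values, with PSMC3, PSMC5 and PSME2 among the lower ones. Of 42 tested genes, 14 fell and 0 rose at an edgeR adjusted p under 0.05, where 5.32% of all 15646 tested genes fell and 7.76% rose. The 14 make up 33.3% of the tested proteasome genes. The median log2 fold change of the 42 was -0.25, beside 0.03 for all tested genes, and 39 of 42 had a value below 0, beside 45.8% of all genes. None of the 14 reached a fold change of 2, which 1.39% of all tested genes did. At an unadjusted edgeR p under 0.05, 27 were lower and 0 higher, beside 12.9% of all genes lower. The remaining gene, PSMA8, an alpha subunit of male germ cells, had 1 count in control library 3 and 0 counts elsewhere and was not tested.

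Every fluoxetine library lay below every control library for 26 of 42 genes (61.9%), beside 14.4% of all tested genes, and the reverse held for 0 of 42, beside 17.5% of all genes. The edgeR fold changes ran from -0.59 for ADRM1 to 0.40 for PSMA6, neither of which passed the test. Among the 28 genes that did not pass, 12 had an edgeR adjusted p between 0.05 and 0.1. The plot of fold changes by class shows these values in order.

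**Figure D1:**
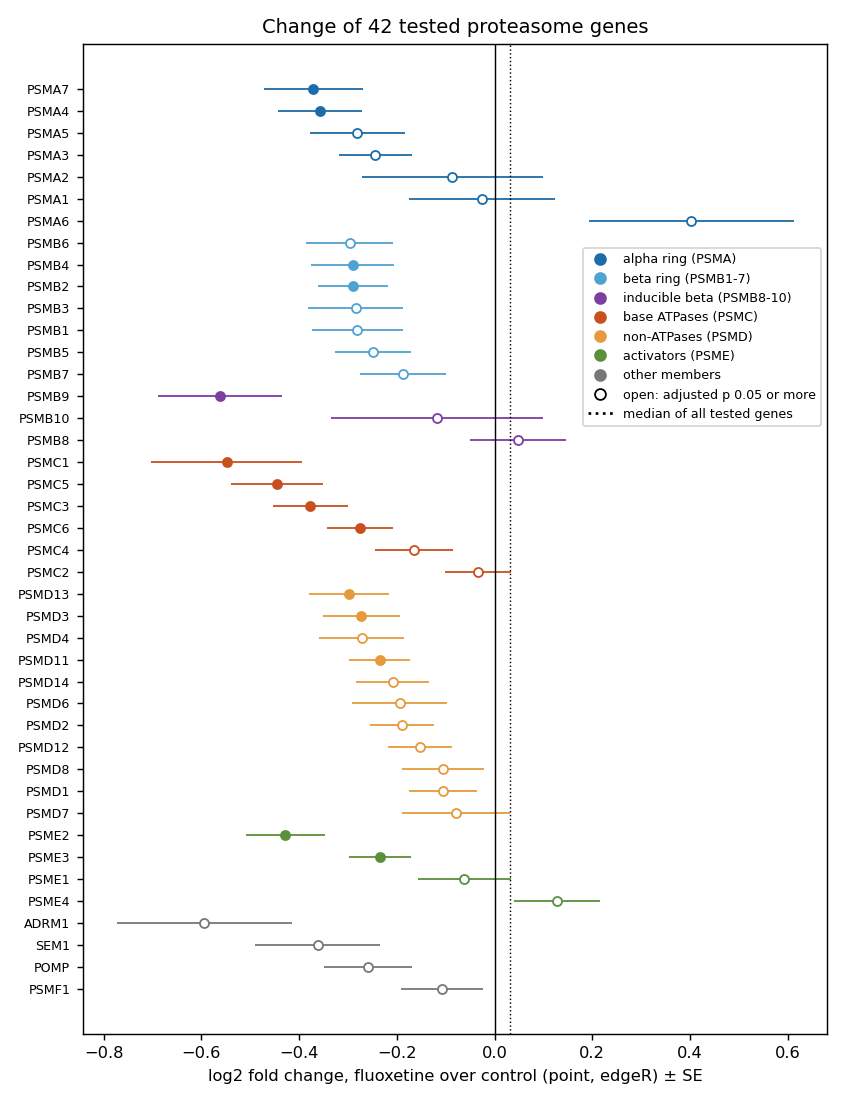
Log2 fold change of fluoxetine over control for the 42 tested proteasome genes (x axis, edgeR estimate with its SE as a bar), ordered by class and then by value (y axis). Filled points passed an adjusted p under 0.05, and all 14 of them lie left of 0, while 3 genes (PSMA6, PSMB8 and PSME4) lie right of 0, of which PSMB8 and PSME4 changed sign in other settings; the dotted line marks the median of all tested genes, 0.03.

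The number of calls moved with each library that was left out, while the median stayed below 0. Without control library 1, PSMA4, PSMB9, PSMC3, PSMC5, PSMC6, PSME2 and PSME3 passed, 7 genes in all, beside 3.48% of all genes called lower. Without control library 2, PSMA4, PSMC3, PSMC5, PSMC6 and PSME2 passed, 5 in all, beside 2.75% of all genes. Without fluoxetine library 3, PSMB9, PSMC3, PSMC5 and PSME2 passed, 4 in all, beside 2.01%. Without fluoxetine library 1 none passed by edgeR, although 23 genes were lower at an unadjusted p under 0.05 and 1.01% of all genes were still called lower. Without control library 3 the count rose to 28, beside 12.7% of all genes, PSMC1 being the 1 of the 14 that was lost. Without fluoxetine library 2 it rose to 25, beside 6.96%. In these 6 fits 38 to 40 of 42 values were below 0 and the median lay between -0.32 and -0.24.

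Of the 8 alpha ring genes, 7 were tested, 2 fell and 5 did not pass, and the median was -0.24. PSMA4 (chr15:78540405-78552419, plus strand, coordinates of all genes on GRCh38) was measured at 474, 404 and 414 CPM in control libraries 1 to 3 and at 319.8, 366 and 321 CPM in fluoxetine libraries 1 to 3. It fell by 21.9% (log2 fold change -0.36 ± 0.086 SE, edgeR adjusted p = 0.0226). Its groups did not overlap, although fluoxetine library 2 stood closer to control than the other 2. PSMA7 (chr20:62136735-62143440, minus strand) was at 267, 248 and 211 CPM in control and at 182, 208 and 172 CPM after fluoxetine. It fell by 22.7% (log2 fold change -0.37 ± 0.10 SE, edgeR adjusted p = 0.037), and the lowest control value stood just above the highest fluoxetine value.

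PSMA3 and PSMA5, also structural subunits of the outer ring, had log2 fold changes of -0.24 ± 0.074 and -0.28 ± 0.097 (SE), with edgeR adjusted p of 0.0554 and 0.0842. Both had every fluoxetine library below every control library. PSMA1, PSMA2 and PSMA6 were listed at far lower levels than the other alpha genes, and the values of PSMA1 and PSMA2 changed sign between settings (from -0.15 to 0.05 and from -0.18 to 0.08). PSMA6 (chr14:35278633-35317493, plus strand) had the largest positive value of all members (log2 fold change 0.40 ± 0.21 SE, edgeR adjusted p = 0.237), from counts of only 61, 42 and 98 in control and 65, 68 and 58 in fluoxetine libraries. Its control libraries spanned 2.18 to 3.53 CPM, so that control library 3 lay above fluoxetine library 3.

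All 7 constitutive beta ring genes had values below 0, with a median of -0.28, and 2 of them fell. PSMB2 (chr1:35599544-35641844, minus strand), a structural subunit of the inner ring, was at 199, 186 and 188 CPM in control and at 156, 165 and 148 CPM in fluoxetine libraries. It fell by 18.1% (log2 fold change -0.29 ± 0.072 SE, edgeR adjusted p = 0.0255), with groups that did not overlap. PSMB4 (chr1:151399534-151401944, plus strand), whose tail takes part in the assembly of the core, was at 438, 416 and 378 CPM in control and at 320.1, 369 and 317 CPM after fluoxetine. It fell by 18.2% (log2 fold change -0.29 ± 0.085 SE, edgeR adjusted p = 0.0484). The call of PSMB4 was lost with library size only in place of TMM scaling and with limma-voom in place of edgeR.

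Of the 3 active-site subunits 0 passed by edgeR as reported. PSMB6 passed in 5 of 9 other settings, DESeq2 and RLE scaling among them (adjusted p = 0.0309 and 0.0469), PSMB5 passed in 4 of 9, including DESeq2 (adjusted p = 0.0472), and PSMB7 in 0 of 9. All 3 also passed when control library 3 or fluoxetine library 2 was left out. PSMB5 (chr14:23016543-23035230, minus strand), which carries the chymotrypsin-like site that bortezomib binds, was at 274, 258 and 241 CPM in control and 211, 233 and 207 CPM after fluoxetine (log2 fold change -0.25 ± 0.078 SE, edgeR adjusted p = 0.0607). PSMB6 (chr17:4796144-4798503, plus strand), the caspase-like subunit, was at 156, 146 and 136 CPM and 109, 131 and 117 CPM (log2 fold change -0.30 ± 0.089 SE, edgeR adjusted p = 0.0525). For both genes all fluoxetine values lay below all control values. PSMB7 (chr9:124353466-124415444, minus strand), the trypsin-like subunit, was at 236, 223 and 209 CPM and 187, 219 and 180.2 CPM (log2 fold change -0.19 ± 0.088 SE, edgeR adjusted p = 0.192), and here fluoxetine library 2 exceeded control library 3. PSMB1 and PSMB3, structural subunits, had log2 fold changes of -0.28 and -0.28 with edgeR adjusted p of 0.0718 and 0.0795.

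Of the 3 inducible subunits 1 fell, and their median was -0.12. PSMB9 (chr6:32844136-32859585, plus strand), the immunoproteasome counterpart of PSMB6, was at 19.1, 19.8 and 15.7 CPM in control and at 11.2, 13.0 and 12.7 CPM in fluoxetine libraries. It fell by 32.3% (log2 fold change -0.56 ± 0.13 SE, edgeR adjusted p = 0.0175), the largest fall among the genes that passed, with every fluoxetine library below every control library. PSMB8 (chr6:32840717-32844703, minus strand), the counterpart of PSMB5, whose annotated range overlaps that of PSMB9 without shared exons in the principal transcripts, was at 56.1, 51.3 and 48.9 CPM in control and at 51.8, 60.2 and 49.5 CPM after fluoxetine (log2 fold change 0.05 ± 0.098 SE, edgeR adjusted p = 0.788). Its groups overlapped, and its sign changed when control library 2, control library 3 or fluoxetine library 2 was left out (-0.0037, -0.031 and -0.073). PSMB10 (chr16:67934502-67937087, minus strand), the counterpart of PSMB7, had only 67, 52 and 57 counts in control and 39, 37 and 44 counts in fluoxetine libraries (log2 fold change -0.12 ± 0.22 SE, edgeR adjusted p = 0.758), and its groups overlapped.

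Ratios of an inducible subunit to the constitutive subunit it replaces, taken within each library, do not depend on the library total. The log2 ratio of PSMB8 to PSMB5 was -2.29, -2.33 and -2.30 in control libraries 1 to 3 and -2.03, -1.95 and -2.06 in fluoxetine libraries 1 to 3, higher by 0.29 on average after fluoxetine. The ratio of PSMB9 to PSMB6 was -3.03, -2.88 and -3.12 in control and -3.28, -3.34 and -3.20 after fluoxetine, a difference of -0.26. Neither ratio overlapped between the groups, and their differences had opposite signs. In two-sided exact permutation tests of the 3 such pairs, both gave p = 0.1, the smallest that 3 against 3 libraries allow, and an adjusted p of 0.15. The third ratio, PSMB10 to PSMB7, differed by 0.08 with overlapping groups (exact permutation p = 0.6).

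Of ratios picked after the values were seen, and therefore given without a test, that of PSMB9 to PSMB8 was -1.55, -1.37 and -1.64 in control and -2.21, -2.21 and -1.97 in fluoxetine libraries, a difference of -0.61. TAP1, the peptide transporter gene that lies next to PSMB9 and is read in the opposite direction, was at 65.9, 63.5 and 60.4 CPM in control and at 56.9, 58.6 and 57.8 CPM after fluoxetine (log2 fold change -0.13 ± 0.076 SE, edgeR adjusted p = 0.295). The log2 ratio of PSMB9 to TAP1 differed by -0.43 between the groups, without overlap. The ratios of PSMB9 to PSMB6, to PSMB8 and to TAP1 all contain the same lower value of PSMB9. They are therefore not separate results.

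**Figure D2:**
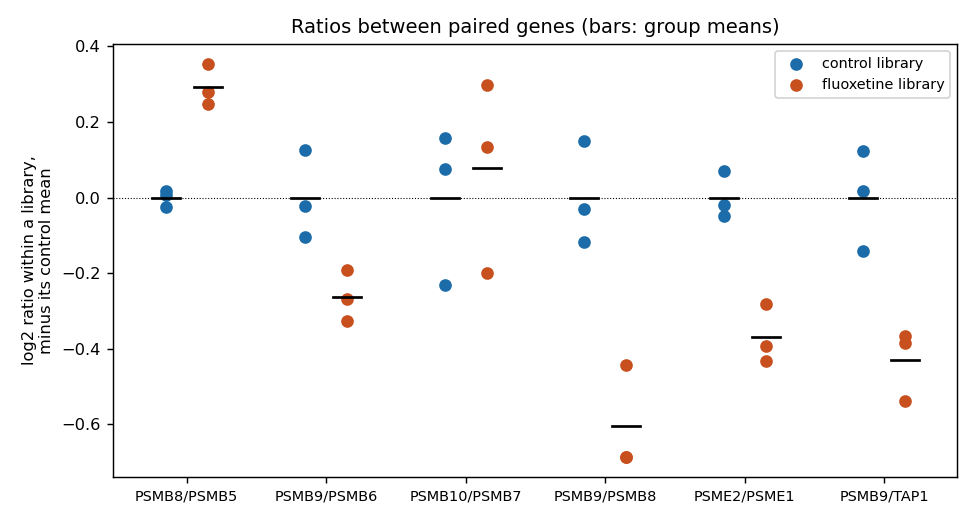
Log2 ratio of 2 genes within a library, minus the mean of that ratio in control (y axis), for 6 gene pairs (x axis). Each point is 1 library and bars are group means over 3 libraries. The ratio of PSMB8 to PSMB5 lies higher in all fluoxetine libraries by 0.29 on average, and that of PSMB9 to PSMB8 lower by 0.61. Only PSMB10 to PSMB7 overlaps. The pairs PSMB9 to PSMB8, PSME2 to PSME1 and PSMB9 to TAP1 were picked after the values were seen, so their lack of overlap is no result.

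The windows around the start sites of PSMB9 and TAP1 are shown because these genes, read away from each other, share a promoter region but had different fold changes. They are RefSeq windows on GRCh38.p14 that run from 250 bases before to 50 bases after an annotated start, and each is written 5′ to 3′ in the direction of its gene. They overlap by 13 bases at their upstream ends. Capitals mark matches on either strand to the letters TGACNNNGC (core of the antioxidant response element, to which NFE2L1 and NFE2L2 can bind), CCAAT (the box bound by NF-Y) and the core of the interferon-stimulated response element (GAAA, any 2 bases, and GAAA again), or to their reverse complements.
PSMB9, chr6:32853942-32854241, plus strand: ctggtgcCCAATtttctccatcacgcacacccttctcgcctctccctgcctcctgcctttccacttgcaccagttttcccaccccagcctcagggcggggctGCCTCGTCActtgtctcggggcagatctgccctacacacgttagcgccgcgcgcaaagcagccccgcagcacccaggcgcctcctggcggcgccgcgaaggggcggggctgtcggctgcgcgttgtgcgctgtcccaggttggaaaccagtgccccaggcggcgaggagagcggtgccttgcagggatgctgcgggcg
TAP1, chr6:32853655-32853954, minus strand: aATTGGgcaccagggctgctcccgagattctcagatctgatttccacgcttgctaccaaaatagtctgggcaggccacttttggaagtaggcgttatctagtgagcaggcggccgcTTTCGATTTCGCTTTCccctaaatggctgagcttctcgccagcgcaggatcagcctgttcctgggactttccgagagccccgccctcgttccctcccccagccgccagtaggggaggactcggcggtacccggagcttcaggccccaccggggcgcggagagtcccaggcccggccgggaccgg
In these letters the PSMB9 window holds 1 antioxidant response core, 148 bases before its start, and no interferon response core. The TAP1 window holds 2 interferon response cores, 134 and 128 bases before its start, which overlap each other. These cores lie further upstream of the PSMB9 start than the PSMB9 window reaches, so the count for PSMB9 does not cover them. The CCAAT box near the upstream end of both windows is the same stretch, read from either strand. Of the PSMB8 windows, 1 holds an interferon response core, 4 bases before its start.

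The base ATPases had the highest share of calls of any class, 4 of 6, with a median log2 fold change of -0.33. Among the 4 is PSMC1, whose value is uncertain for reasons given below, and each class holds few genes. PSMC3 (chr11:47418769-47426473, minus strand), also known as RPT5, was at 206, 186 and 179 CPM in control and at 145, 153 and 141 CPM in fluoxetine libraries. It fell by 23.0% (log2 fold change -0.38 ± 0.076 SE, edgeR adjusted p = 0.0106), and the groups were well apart. PSMC5 (chr17:63827152-63832026, plus strand), or RPT6, was at 167, 139 and 134 CPM in control and 103, 115 and 104 CPM after fluoxetine. It fell by 26.6% (log2 fold change -0.45 ± 0.094 SE, edgeR adjusted p = 0.0131), control library 1 being the highest of the 6. PSMC5 shares 27.2% of its principal transcript with FTSJ3 on the opposite strand, a ribosome biogenesis gene that also fell by 29.4% (log2 fold change -0.50 ± 0.083 SE, edgeR adjusted p = 0.00401), and the part of that overlap in the result was not tested.

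PSMC6 (chr14:52707172-52728587, plus strand), or RPT4, was at 168, 155 and 162 CPM in control and at 133, 136 and 133 CPM after fluoxetine. It fell by 17.4% (log2 fold change -0.28 ± 0.068 SE, edgeR adjusted p = 0.0247), and the SD of its fluoxetine values was 1.84 CPM (n = 3). PSMC1 (chr14:90256495-90275429, plus strand), or RPT2, had 187, 170 and 283 counts in control and 103, 123 and 91 in fluoxetine libraries, that is 8.47, 8.84 and 10.2 and 6.24, 7.30 and 5.29 CPM. It fell by 31.6% (log2 fold change -0.55 ± 0.15 SE, edgeR adjusted p = 0.0418), but 82.1% of its principal transcript is shared with NRDE2 on the opposite strand, and its processed copy PSMC1P1 had more counts than PSMC1 itself, 679, 516 and 919 and 393, 425 and 411 (log2 fold change -0.32 ± 0.10 SE, edgeR adjusted p = 0.0726). The value of PSMC1 is therefore uncertain, and its call was also lost at equal depth, that is with each library thinned to the smallest total, and with library size only.

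The other ATPase genes did not pass. PSMC4 (RPT3) had a log2 fold change of -0.16 ± 0.080 (SE) and PSMC2 (RPT1) one of -0.03 ± 0.068, with edgeR adjusted p of 0.208 and 0.778. PSMC2 was at 231, 228 and 220.3 CPM in control and 215, 233 and 216 CPM after fluoxetine, so that fluoxetine library 2 was the highest of all 6. The products of these 6 genes stand in 1 ring in equal number, and their fold changes ran from -0.55 to -0.03, or from -0.45 without PSMC1.

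A window at an annotated start of PSMC5 is shown because it holds an antioxidant response core in an ATPase gene that fell, in capitals and 57 bases before the start.
PSMC5, chr17:63827471-63827770, plus strand: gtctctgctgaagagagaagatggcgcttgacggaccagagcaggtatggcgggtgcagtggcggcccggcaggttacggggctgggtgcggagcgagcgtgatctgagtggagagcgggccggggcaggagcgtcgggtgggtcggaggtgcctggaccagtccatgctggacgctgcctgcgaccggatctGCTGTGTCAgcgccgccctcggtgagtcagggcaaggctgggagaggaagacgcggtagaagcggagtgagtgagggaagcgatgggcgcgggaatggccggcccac
A second window, at another annotated start of PSMC5 further upstream, holds a CCAAT box instead. An antioxidant response core also lies in the window of PSMC4, an ATPase gene that did not pass.

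All 11 non-ATPase genes of the 19S cap had values below 0, between -0.30 and -0.08 with a median of -0.19, and 3 fell. PSMD13 (chr11:236546-252984, plus strand), the lid subunit RPN9, was at 154, 147 and 143 CPM in control and at 113, 133 and 114 CPM in fluoxetine libraries. It fell by 18.7% (log2 fold change -0.30 ± 0.083 SE, edgeR adjusted p = 0.0394). PSMD3 (chr17:39980797-39997960, plus strand), the lid subunit RPN3, was at 239, 242 and 217 CPM in control and at 184, 209 and 186 CPM after fluoxetine. It fell by 17.2% (log2 fold change -0.27 ± 0.079 SE, edgeR adjusted p = 0.0459), with a call that was lost at equal depth, with library size only and with limma-voom. In both genes fluoxetine library 2 was the highest of its group and still below every control library.

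PSMD11 (chr17:32444261-32483318, plus strand), the lid subunit RPN6 that joins the lid to the core and is limiting for assembly in some cells, was at 392, 381 and 388 CPM in control and at 327, 329 and 330.2 CPM after fluoxetine. It fell by 15% (log2 fold change -0.24 ± 0.062 SE, edgeR adjusted p = 0.0331), a small change between groups that were each tight. Its mean was 387 ± 5.90 CPM in control (SD, n = 3) and 329 ± 1.52 CPM after fluoxetine (SD, n = 3). The deubiquitinase of the lid, PSMD14 (RPN11), had a log2 fold change of -0.21 ± 0.074 and the ubiquitin receptor PSMD4 (RPN10) one of -0.27 ± 0.087, with edgeR adjusted p of 0.0936 and 0.066. The large scaffold subunits PSMD1 and PSMD2 were at -0.11 and -0.19, and did not pass (edgeR adjusted p = 0.359 and 0.0827). For all 4 the groups did not overlap.

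PSMD3 is shown because its window holds 2 antioxidant response cores on opposite strands, 37 bases before and 33 bases after the start, beside a CCAAT box.
PSMD3, chr17:39980557-39980856, plus strand: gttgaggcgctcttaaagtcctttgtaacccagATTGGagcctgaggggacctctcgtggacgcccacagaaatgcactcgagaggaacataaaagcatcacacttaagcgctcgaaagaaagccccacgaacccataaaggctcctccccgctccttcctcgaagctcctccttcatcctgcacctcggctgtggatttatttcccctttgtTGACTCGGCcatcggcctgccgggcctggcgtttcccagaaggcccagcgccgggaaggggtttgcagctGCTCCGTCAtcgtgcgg
Over all proteasome genes, 38 of 43 had a RefSeq window, and PSMA7, PSMB1, PSMB6, PSMB7 and PSMD4 are named only. The antioxidant response core was found in 13 of 38 genes (34.2%), beside 16.1% of 27305 genes with windows, and the CCAAT box in 19 of 38 (50%), beside 39.7%. The interferon response core was found in 6 of 38 (15.8%), beside 4.38% of all genes, namely PSMA4, PSMB4, PSMB8, PSMB10, PSME1 and PSME2. Of the genes that fell, 13 had a window, and 5 of these held an antioxidant response core. The other members with this core did not pass, namely ADRM1, PSMB3, PSMC4, PSMD1, PSMD12, PSME1, PSME4 and SEM1. A link between a match and a fall was not tested. Matches to different motifs shared no bases, and a match is a description of letters and not a site of binding.

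Among the activators, which cap the core in place of the 19S particle, 2 of 4 fell and the median was -0.15. PSME2 (chr14:24143362-24147570, minus strand), the beta subunit of the PA28 cap that interferon induces, was at 107, 97.3 and 93.5 CPM in control and at 70.0, 77.0 and 74.3 CPM in fluoxetine libraries. It fell by 25.7% (log2 fold change -0.43 ± 0.081 SE, edgeR adjusted p = 0.00782), the smallest p of any proteasome gene. PSME1 (chr14:24136158-24138967, plus strand), the alpha subunit of the same ring, was at 82.7, 73.7 and 66.5 CPM and 70.5, 75.5 and 67.4 CPM (log2 fold change -0.06 ± 0.095 SE, edgeR adjusted p = 0.704), with groups that overlapped and a value that turned to 0.02 when the trends with GC content and length were removed. The log2 ratio of PSME2 to PSME1, picked after the values were seen, was 0.37, 0.40 and 0.49 in control and -0.010, 0.028 and 0.14 after fluoxetine. It was thus lower by 0.37 on average in fluoxetine libraries, without overlap.

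PSME1 and PSME2 lie on chromosome 14 and face each other, 4394 bases apart. Their windows are set side by side because both carry an interferon response core and an antioxidant response core.
PSME1, chr14:24135944-24136243, plus strand: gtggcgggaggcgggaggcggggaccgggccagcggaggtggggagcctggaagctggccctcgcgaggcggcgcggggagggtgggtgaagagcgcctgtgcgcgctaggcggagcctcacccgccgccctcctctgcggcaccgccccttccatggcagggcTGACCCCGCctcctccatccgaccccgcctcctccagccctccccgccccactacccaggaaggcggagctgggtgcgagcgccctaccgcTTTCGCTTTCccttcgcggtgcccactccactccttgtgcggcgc
PSME2, chr14:24146561-24146860, minus strand: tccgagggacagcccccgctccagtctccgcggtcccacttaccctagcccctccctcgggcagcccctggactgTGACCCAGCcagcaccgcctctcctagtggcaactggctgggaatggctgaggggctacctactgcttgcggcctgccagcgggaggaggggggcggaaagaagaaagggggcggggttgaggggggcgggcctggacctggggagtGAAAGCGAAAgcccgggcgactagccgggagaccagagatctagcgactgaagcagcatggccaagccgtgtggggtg
The interferon response core lies 28 bases before the PSME2 start and at base 5 after the PSME1 start, and the antioxidant response core 175 and 86 bases before the starts.

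PSME3 (chr17:42824385-42843758, plus strand), which forms the nuclear PA28 gamma cap, was at 394, 394 and 395 CPM in control and at 326, 344 and 335 CPM after fluoxetine. It fell by 15% (log2 fold change -0.23 ± 0.063 SE, edgeR adjusted p = 0.0354), against a control spread of only 0.407 CPM (SD, n = 3). PSME4, the PA200 cap of nuclei and testis, had a positive value of 0.13 ± 0.088 (SE, edgeR adjusted p = 0.383), with overlapping groups, and this turned to -0.04 when the trends with GC content and length were removed.

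Of the 4 genes outside these families 0 passed by edgeR, with 3 lower at an unadjusted p under 0.05 and a median of -0.31. ADRM1 (chr20:62302093-62308862, plus strand), the ubiquitin receptor RPN13, had the lowest value of all members at 76.8, 66.4 and 46.1 CPM in control and 43.6, 47.9 and 33.7 CPM after fluoxetine (log2 fold change -0.59 ± 0.18 SE, edgeR adjusted p = 0.054). It passed in 6 of 9 other settings, including DESeq2 and RLE scaling (adjusted p = 0.00437 and 0.0481), and when control library 3 or fluoxetine library 2 was left out. Its groups overlapped, since control library 3 lay below fluoxetine library 2, and 24.1% of its principal transcript is shared with other annotated genes. SEM1, a small lid subunit, POMP, which matures the core, and PSMF1, an inhibitor of the core, had log2 fold changes of -0.36, -0.26 and -0.11, with edgeR adjusted p of 0.0909, 0.0837 and 0.448. POMP passed in 3 of 9 other settings and SEM1 in 4 of 9, including DESeq2 for SEM1 (adjusted p = 0.0392). POMP was at 153, 126 and 129 CPM in control and 111, 121 and 109 CPM after fluoxetine, with no overlap.

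Core and regulatory genes were then set against each other. Of 17 tested core genes 5 fell, with a median log2 fold change of -0.28, and of 21 regulatory genes 9 fell, with a median of -0.21. The difference of the medians, -0.07, changed sign to 0.04 when the trends with GC content and length were removed from each library. It came to -0.02 without control library 1, -0.03 without fluoxetine library 1 and -0.04 without fluoxetine library 3. The summed CPM of the core genes divided by that of the regulatory genes gave log2 ratios of -0.61, -0.67 and -0.72 in control and -0.76, -0.68 and -0.81 in fluoxetine libraries. These ranges overlapped, and no difference between core and regulatory genes was detectable beyond the spread of the libraries.

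Seen library by library, all genes together made up 0.767%, 0.728% and 0.705% of the counts in control libraries 1 to 3 and 0.620%, 0.669% and 0.611% in fluoxetine libraries 1 to 3. The summed level was 7390.5 ± 369.8 CPM in control (SD, n = 3) and 6289 ± 367 CPM after fluoxetine (SD, n = 3). The median gene stood at 0.09, -0.01 and -0.09 (log2, relative to the control mean) in control and at -0.29, -0.15 and -0.30 in fluoxetine libraries. Many of the genes also shared an order within groups: control library 1 was the highest of its group for 35 of 42 genes, control library 3 the lowest for 28, and fluoxetine library 2 the highest of its group for 37. The lowest median in control stood above the highest after fluoxetine, and 33 to 39 of 42 genes lay below their control mean in each fluoxetine library. These counts were not taken over all tested genes, so they cannot be called particular to the proteasome genes.

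**Figure D3:**
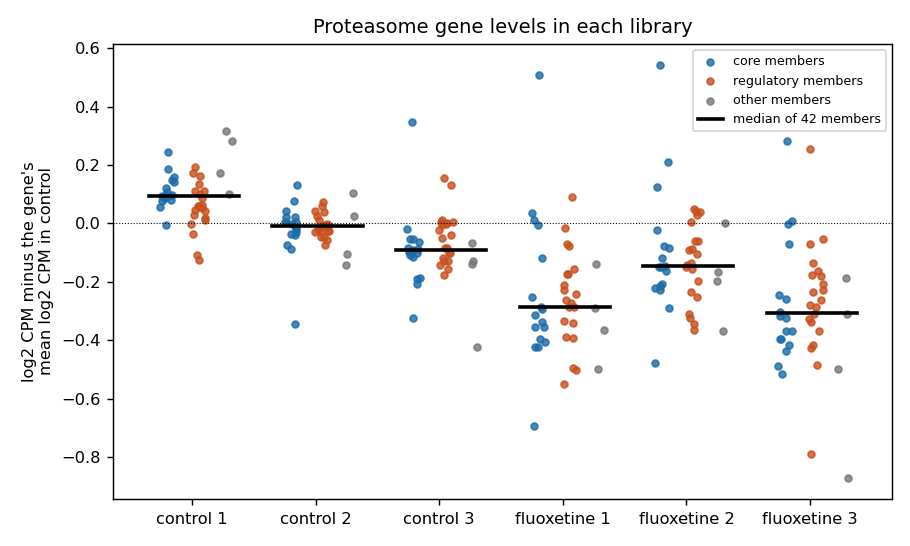
Level of each tested proteasome gene in each library (y axis, log2 CPM minus the gene's mean log2 CPM in control) for the 6 libraries (x axis), coloured by core, regulatory and other genes. Black bars are medians over 42 genes, at 0.09, -0.01 and -0.09 in control and -0.29, -0.15 and -0.30 in fluoxetine libraries; fluoxetine library 2 lies between the groups.

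The libraries also differed in how the level of all genes followed GC content. The slope per 10 points of GC was 0.10, 0.10 and -0.12 (log2) in control libraries 1 to 3 and -0.03, 0.05 and -0.10 in fluoxetine libraries 1 to 3. In each group library 3 had the lowest slope and the lowest proteasome median, and fluoxetine library 2 had the highest of both in its group; the part of this trend in the medians was not tested. The medians of the proteasome genes were also taken with the trends with GC and transcript length removed. They were 0.05, -0.01 and -0.04 in control and -0.30, -0.17 and -0.27 in fluoxetine libraries. Their mean over the fluoxetine libraries was -0.25 with and without this step. The SD of the medians went from 0.091 to 0.046 in control and from 0.086 to 0.064 after fluoxetine (n = 3). In the fit with the trends removed 26 genes fell, beside 14% of all tested genes called lower. In bulk RNA, fewer cells holding a transcript and less of it per cell cannot be told apart, and CPM, as a share of a library, does not show the RNA content of a cell.

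The lengths of principal transcripts in GENCODE release 29 put the genes on a common scale. Of the 42 tested genes, 36 shared less than 40% of that transcript with another annotated gene, and in control these ranged from 21.3 CPM per kb (PSME4) to 426 CPM per kb (PSMB4), with a median of 96.0. Constitutive beta genes had a median of 199 CPM per kb in control and 168 after fluoxetine, and base ATPases 92.8 and 72.5. PSMB8 at 46.4 and PSMB9 at 23.3 CPM per kb lay below all 7 constitutive beta genes, whose lowest was PSMB2 at 70.7. Among these 36 genes the log2 fold change had a Pearson r of 0.37 and a Spearman rho of 0.30 with transcript length, a description over genes that all come from the same 6 libraries.

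**Figure D4:**
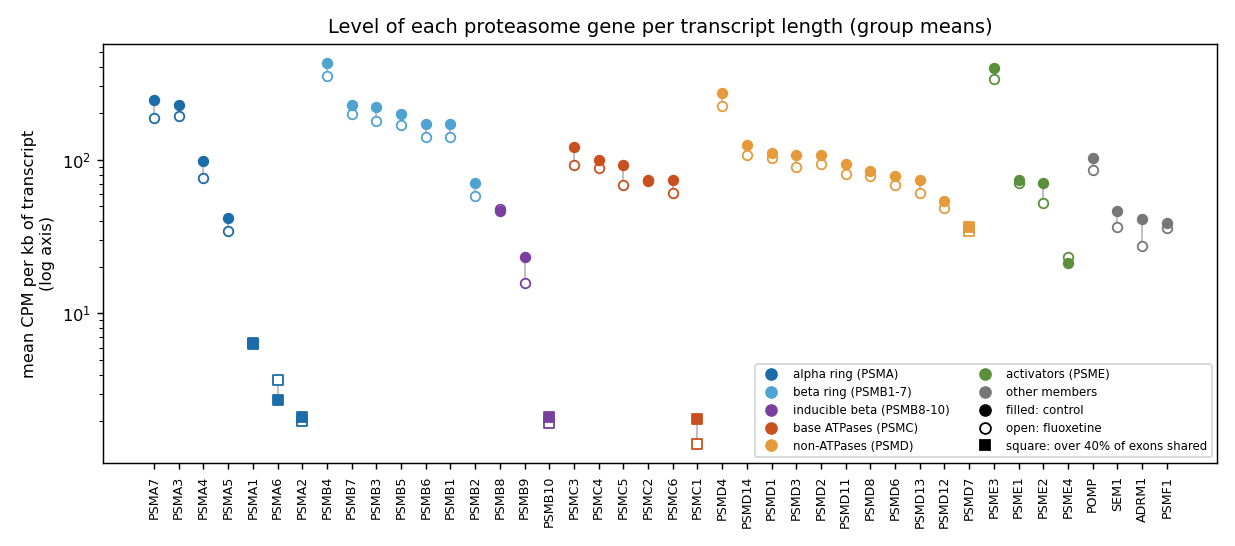
Mean CPM per kb of principal transcript (y axis, log scale) of each tested proteasome gene (x axis, by class) in control (filled) and fluoxetine (open), means of 3 libraries. Circles, the 36 genes with little shared sequence, lie at 21.3 CPM per kb or higher in control, while 5 of the 6 squares, genes that share over 40% of their transcript with another gene, lie below 10.

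The 6 genes with large shared exons were PSMA1, PSMA2, PSMA6, PSMB10, PSMC1 and PSMD7. PSMA6 shares 81.0% of its principal transcript with a read-through gene on the same strand, PSMA1 53.2%, PSMA2 52.5% and PSMB10 45.3%, while PSMC1 and PSMD7 overlap a gene on the opposite strand (82.1% and 50.4%). Except for PSMD7 they were listed at 2.06 to 6.40 CPM per kb in control, far below their partners in the same ring. HTSeq is among the tools that the submitters' processing notes name, its way of treating a read that fits several genes and its strand setting are not given in the sources used here, and the part of shared exons in these low counts was not tested. Without these 6 genes, 13 of 36 fell, 25 had groups that did not overlap, and the median was -0.27. With them alone, 1 of 6 fell and the median was -0.08.

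The genes that assemble, regulate and serve the proteasome were read from the same fit. Of 78 tested partner genes that are no proteasome members themselves, 1 fell and 5 rose, with a median log2 fold change of -0.03. Over all tested genes 5.32% fell and 7.76% rose, and these shares stand beside the counts of each list below. At an unadjusted edgeR p under 0.05, 12.9% of all tested genes were lower and 15.8% higher. The 9 assembly chaperones, which include POMP, had a median of -0.18, 8 of 9 values below 0, and 0 that passed by edgeR (4 lower at an unadjusted p under 0.05). By DESeq2, 10 partner genes passed in place of 6 (these counts leave out members on the lists). The edgeR count was 3 without control library 1, fluoxetine library 1 or fluoxetine library 3, and 20 without control library 3.

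The 16 genes that regulate proteasome transcription had a median of 0.00, and 0 passed by edgeR, with 3 higher and 0 lower at an unadjusted p under 0.05. NFE2L1, the factor that raises proteasome transcription when activity is short, was at 282, 304 and 306 CPM in control and at 344, 311 and 373 CPM after fluoxetine (log2 fold change 0.21 ± 0.081 SE, edgeR adjusted p = 0.123). All 3 fluoxetine values lay above all control values, as for 17.5% of all tested genes. A link between NFE2L1 and the values of the proteasome genes was not tested. NFE2L2, the regulator of the antioxidant response, had a value of 0.14 (edgeR adjusted p = 0.239), also without overlap. DDI2, the protease that releases NFE2L1 from the membrane, had one of -0.09 (edgeR adjusted p = 0.691), with overlap.

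Of the receptors, deubiquitinases and shuttles bound to the proteasome, 16 of 17 listed genes were in the table and tested, 1 rose and 0 fell. The riser was UBQLN2, a shuttle that carries ubiquitinated proteins to the proteasome, at 61.1, 67.5 and 71.2 CPM in control and 86.0, 83.4 and 78.3 CPM after fluoxetine, which rose by 23.9% (log2 fold change 0.31 ± 0.084 SE, edgeR adjusted p = 0.0363). This call was lost without a filter on low counts and in 5 of 6 fits that left out a library (all but that without control library 3). Of 12 genes for ubiquitin and its activation 1 fell, UBE2N, a conjugating enzyme of ubiquitin signalling, which fell by 16.3% (log2 fold change -0.26 ± 0.069 SE, edgeR adjusted p = 0.0353). It was at 219, 205 and 226 CPM in control and 180.2, 187 and 177 CPM after fluoxetine, and its call was lost without control library 1, fluoxetine library 1 or fluoxetine library 3.

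The antigen presentation and interferon list, whose products work with the immunoproteasome, had 2 of 18 genes that rose and 0 that fell. This stood beside 7.76% of all tested genes that rose and 5.32% that fell, and the median of the list was 0.06. NLRC5, the transactivator of MHC class I genes, was at 21.9, 23.5 and 23.0 CPM in control and at 39.9, 36.7 and 38.7 CPM in fluoxetine libraries, and rose by 68.5% (log2 fold change 0.75 ± 0.090 SE, edgeR adjusted p = 6.5e-04). TAPBP, which loads peptide on MHC class I, was at 64.1, 70.3 and 54.7 CPM and 80.4, 86.6 and 82.8 CPM, and rose by 32.2% (log2 fold change 0.40 ± 0.097 SE, edgeR adjusted p = 0.0231). The TAPBP call was lost without control library 1 or any 1 fluoxetine library. PSMB9 and PSME2, which belong to the same interferon programme, thus had values of opposite sign to these genes.

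Of 10 antioxidant genes known as NFE2L2 targets, 9 were tested, 2 rose and 0 fell, beside 7.76% of all tested genes that rose. HMOX1, haem oxygenase, was at 48.5, 45.7 and 39.3 CPM in control and at 80.9, 97.3 and 72.5 CPM after fluoxetine, and rose by 87.8% (log2 fold change 0.91 ± 0.12 SE, edgeR adjusted p = 0.00117). ME1, the cytosolic malic enzyme that makes NADPH, was at 236, 223 and 243 CPM and 318, 343 and 331 CPM, and rose by 41.2% (log2 fold change 0.50 ± 0.069 SE, edgeR adjusted p = 0.00155). HMOX1, ME1 and NLRC5 kept their calls in each of the fits tried, and for none of the 3 did the groups overlap.

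The plot of calls by setting puts the dependence of the proteasome result on the processing in 1 view. The count of genes that fell ranged from 0 to 28, while the median of the 42 stayed between -0.32 and -0.22 and that of all genes between -0.02 and 0.05. DESeq2 called 21 proteasome genes lower, beside 6.98% of all genes, and RLE scaling in place of TMM gave 17, beside 6.31%. Limma-voom gave 12 (4.84% of all genes), library size only 11 (4.61%), equal depth 13 (5.34%), at least 10 counts in every library 14 (5.75%) and no filter on low counts 25 (4.77%).

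**Figure D5:**
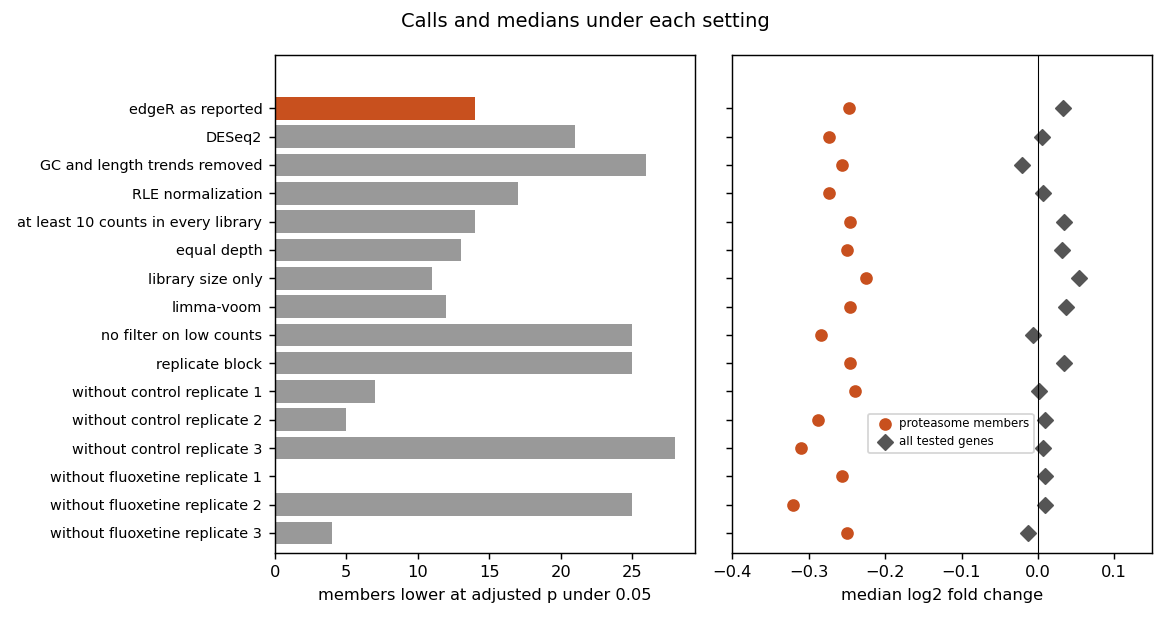
Left, the number of proteasome genes lower at an adjusted p under 0.05 (x axis) under each setting of the analysis (y axis); right, the median log2 fold change of the proteasome genes (circles) and of all tested genes (diamonds) under the same settings. The count is 14 as reported and 0 without fluoxetine replicate 1, while each circle stays between -0.32 and -0.22.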

How the data were processed

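A single deposited table gives unnormalized read counts for 31762 genes, with a column for each of 3 control and 3 fluoxetine libraries. It also holds their log2 fold change and their p-value and adjusted p-value of the comparison (deposited columns that were not used here). The submitters' processing notes name fastp 0.20.0, HISAT2 2.1.0, HTSeq 0.10.0 and DESeq2 1.18.1; strand setting and annotation release are not given in the sources used here. Of the genes, 31635 are in GENCODE release 29 (GRCh38), 96.8% with the same start and end, as are all 43 proteasome genes. How reads that fit several genes were counted can change the counts of genes with shared exons.

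The test was edgeR 4.0.16 under R 4.3.3 (TMM, filterByExpr, glmQLFit and glmQLFTest, no covariate), with Benjamini-Hochberg adjustment over 15646 tested genes. A gene passed at an adjusted p under 0.05, and "fell" and "rose" are used of such genes. CPM are scaled by TMM factors, and errors are SDs (n = 3). Library totals were 16157507 to 27823667 counts, and the floor of 3 counts covers counting error only. Of the partner lists, up to 5 genes that passed were named, with NFE2L1, NFE2L2, DDI2 and POMP in any case; of the members, those that passed, the largest rise and fall, and PSMB5 to PSMB10 were given in full. The members and lists were chosen with earlier results of these data known. Ratios of the 3 pairs of inducible and constitutive subunits were compared by two-sided exact permutation tests in scipy 1.17.1.

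Alternatives were DESeq2 1.42.0, limma-voom 3.58.1, RLE scaling, library size only, no filter, at least 10 counts in every library, thinning to equal depth, the replicate number as a block, leaving out each library, an unadjusted p and a fold change of at least 2. Removing GC and length trends from each library (99.7% of tested genes had both) and leaving out members with over 40% shared transcript were chosen after seeing the data. In simulated libraries with the means and depths of this comparison, edgeR recovered 95 of 100 planted changes of 2-fold and 65 of 100 of 1.5-fold among 15656 genes, with 3 false calls. These libraries had a common dispersion for all genes (biological coefficient of variation 0.107) and no GC or length trends. The planted changes were also larger than the falls of the proteasome genes that passed. The simulation therefore does not give the recovery or false-call rate of the calls made here.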

Additional observations from a re-analysis of the deposited data

How the results depend on the processing

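The proteasome genes that fell numbered 14 as reported. The count was 26 with GC and length trends removed, 25 without a filter on low counts, 25 with the replicate number as a block (beside 11.4% of all genes called lower), 27 at an unadjusted p, 0 with a fold change of at least 2, and 0 to 28 with 1 library left out. DESeq2 gave 21, RLE scaling 17, limma-voom 12, library size only 11, equal depth 13 and at least 10 counts in every library 14. The number that rose was 0 in each of these. Over all genes 2047 were called as reported, 3729 with the trends removed, 4018 with the block, 4485 at an unadjusted p, 218 with a fold change of at least 2, and 572 to 3633 with 1 library left out. Partner genes called numbered 6 as reported, 10 by DESeq2, 21 with the trends removed, 11 without a filter, 16 with the block, 22 at an unadjusted p, 0 with the fold change minimum, and 3 to 20 with 1 library left out. The cause of these shifts was not tested.

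The share of all calls that were lower was 40.7% as reported and 58.7% with the trends removed, and 52.1% without a filter. The core minus regulatory median was -0.07 as reported, 0.041 with the trends removed and -0.085 to -0.016 with 1 library left out, nearest 0 without control library 1 (-0.016), fluoxetine library 1 (-0.030) and fluoxetine library 3 (-0.042). With 1 library left out, the median of the constitutive beta genes lay between -0.40 and -0.25, that of the inducible genes between -0.31 and -0.021 (-0.21 at equal depth), and that of ADRM1, POMP, PSMF1 and SEM1 between -0.41 and -0.22. In these fits PSMB8 lay between -0.073 and 0.083, PSMA1 between -0.15 and 0.055 and DDI2 between -0.21 and 0.0047, the value of DDI2 turning positive without fluoxetine library 2. With the trends removed, PSMA1 turned to 0.032, PSME1 to 0.016 and PSME4 to -0.041, and PSMA2 turned to 0.078 at equal depth. The deviations of same-numbered libraries from their group means correlated by 0.03, 0.12 and 0.39, so the numbers were not taken to pair the samples, and the blocked counts above are given for completeness. Of the comparisons of 1 tested proteasome gene, or of 1 neighbouring or partner gene named above, with an alternative, 664 kept direction and side of the threshold, 61 lost the call, 75 gained it and 10 changed sign, in PSMA1, PSMA2, PSMB8, PSME1, PSME4 and DDI2.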
